A study of Mus musculus with 24 samples.

Results

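The data described here ask whether the diet of a mouse changes how its duodenum responds to 1,25-dihydroxyvitamin D3 (1,25D), the active hormone form of vitamin D. All 24 RNA sequencing libraries of the series were used, 6 in each of 4 groups, and the quantity of interest is the interaction: the difference between 1,25D and vehicle on the rescue diet minus the same difference on the normal diet. All 4 groups were male mice null for Cyp27b1, whose product converts the precursor into 1,25D, so none of them could make the hormone, and no wild type was analysed here. From weaning at 3 weeks all ate purified, vitamin D-deficient food. Calcium was 0.47% and phosphorus 0.3% of the normal diet, against 2% and 1.25% of the rescue diet, to which 20% lactose was also added, so calcium, phosphorus and lactose differed together and their parts cannot be told apart. At 8 weeks the mice were injected with vehicle or with 2 ng of 1,25D per g of body weight, and the duodenum was taken 6 h later. The 4 groups are called normal vehicle, normal 1,25D, rescue vehicle and rescue 1,25D. The labels give 12 mice per diet and 8 injected per group and do not say which animal gave which library. A p-value here sets a difference between group means against the spread of these libraries only, and whether each is a separate animal is not known.

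1,25D acts through the vitamin D receptor, a nuclear receptor that binds DNA with a partner receptor and switches on target genes. In the duodenum its targets carry dietary calcium across the absorptive cell: Trpv6 lets calcium in at the brush border, the carrier S100g (calbindin) ferries it through the cytosol and the pump Atp2b1 moves it out at the basolateral side, while Cyp24a1 degrades the hormone. A diet rich in calcium, phosphate and lactose supplies mineral by routes that depend less on the hormone, which is why such diets are used to keep mice without vitamin D signalling in mineral balance. The same absorptive cells also digest and take up sugars, fats and peptides and clear foreign compounds.

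Summed RPKM (reads per kilobase of feature scaled to library size) ran from 541395 to 697913 per library, and no pair of libraries was identical. Markers of the proximal intestine were present in every library: Pdx1 lay between 15.4 and 58.8 RPKM and Vil1 between 116 and 328 RPKM, while the hindgut gene Hoxb13 did not exceed 0.388 RPKM. Cyp27b1 reached at most 0.452 RPKM in any library and did not pass the filter on low values, and since the deleted part of the gene is not given, this checks no label. Exocrine pancreas genes held over 3% of summed RPKM in 5 libraries (normal vehicle replicates 1, 3 and 6, normal 1,25D replicate 2 and rescue 1,25D replicate 1), with 17.8% in normal vehicle replicate 6. The number of genes called, the Upb1 result and the counts of the main gene lists are given below with and without them.

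S100g and Trpv6 responded to 1,25D on both diets, whereas the estimated responses of Upb1 and Fabp1 on the 2 diets had opposite signs. Upb1 and Fabp1 did not pass the test on the rescue diet, and Fabp1 did not on the normal diet. The promoters of these 4 genes are shown. They are RefSeq windows of the GRCm38.p6 build, on the strand of the gene, from 250 bases before to 50 after the transcription start: S100g at chrX:162964550-162964849 (minus strand), Trpv6 at chr6:41636356-41636655 (minus), Upb1 at chr10:75406661-75406960 (plus) and Fabp1 at chr6:71199629-71199928 (plus). Capitals mark the letters AGGTCA or, on the other strand, TGACCT, the 6-base unit that nuclear receptors of this class recognise in pairs.
S100g: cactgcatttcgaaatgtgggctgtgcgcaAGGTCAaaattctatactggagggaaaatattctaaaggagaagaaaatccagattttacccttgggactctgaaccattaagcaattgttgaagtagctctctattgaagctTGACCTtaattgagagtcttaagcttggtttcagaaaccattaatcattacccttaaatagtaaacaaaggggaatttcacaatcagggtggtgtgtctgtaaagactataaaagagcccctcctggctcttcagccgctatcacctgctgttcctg
Trpv6: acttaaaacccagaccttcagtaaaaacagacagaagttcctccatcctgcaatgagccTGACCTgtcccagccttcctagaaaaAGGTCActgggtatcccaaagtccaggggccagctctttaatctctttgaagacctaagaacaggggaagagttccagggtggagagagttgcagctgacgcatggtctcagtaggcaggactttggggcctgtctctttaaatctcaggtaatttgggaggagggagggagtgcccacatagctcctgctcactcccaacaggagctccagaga
Upb1: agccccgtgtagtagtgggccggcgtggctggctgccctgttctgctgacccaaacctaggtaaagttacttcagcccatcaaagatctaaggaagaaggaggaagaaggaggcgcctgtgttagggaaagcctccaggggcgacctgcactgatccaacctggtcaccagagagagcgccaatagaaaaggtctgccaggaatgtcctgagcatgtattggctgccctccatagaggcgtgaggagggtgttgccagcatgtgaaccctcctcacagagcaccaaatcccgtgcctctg
Fabp1: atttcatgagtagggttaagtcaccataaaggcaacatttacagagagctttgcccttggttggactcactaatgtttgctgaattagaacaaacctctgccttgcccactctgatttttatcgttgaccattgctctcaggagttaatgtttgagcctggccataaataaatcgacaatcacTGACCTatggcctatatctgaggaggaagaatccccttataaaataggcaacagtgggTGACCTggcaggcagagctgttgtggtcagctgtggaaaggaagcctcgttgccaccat
The S100g window held the motif at positions -220 and -107 from the start, the Trpv6 window at -191 and -165 and the Fabp1 window at -67 and -9, while these letters do not occur in the Upb1 window. Of 32851 RefSeq windows of the same length, 16.3% held at least 1 match and 1.81% held 2 or more. A match describes the sequence and is not evidence of binding.

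Across the 20006 genes tested, the response to 1,25D differed between the diets for 1 gene, Upb1, which is 0.005% of all genes (limma on log2(RPKM + 0.5), Benjamini-Hochberg adjusted p under 0.05). The genes next in order of p among those named were the aldo-keto reductases Akr1c19 and Akr1c13, the amine oxidase Maoa, the retinol saturase Retsat, the esterase Aadac, the sugar cotransporter family member Slc5a4a, the drug efflux pump Abcb1a, the bisphosphatase Fbp2 and the clock output factor Tef. For each of these 9 the response was lower on the rescue diet, with adjusted p between 0.0937 and 0.133. The classical vitamin D targets were not among them. At an adjusted p under 0.1 there were 5 genes: Upb1, Akr1c19, Akr1c13, Maoa and the unnamed locus 3110049J23Rik (-1.33, SE 0.26, adjusted p = 0.0937), which the rule for named genes left out and which was added after its value was seen. At 0.2 there were 44, of which 43 had a lower response on the rescue diet.

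At an unadjusted p under 0.05, a level used below only to describe gene lists, there were 1371 genes (6.85%), where 1000 are due by chance. Of these, 1118 (5.59% of all genes) had a lower response on the rescue diet and 253 (1.26%) a higher one. This lean was smaller under other scalings, with 1009 lower and 584 higher after quantile normalization and 1007 lower and 452 higher after median-of-ratios scaling. Without the 5 libraries rich in pancreas genes it turned, with 475 lower (2.45% of 19389 genes) and 725 higher. With the general epithelium genes as a covariate it also turned, with 431 lower (2.15%) and 737 higher. Counts of genes with a lower response are therefore given for most lists in these fits as well. Each count is to be read against the share of all genes that were lower in its fit. That share was 5.59% in the fit to all libraries and 3.35% with the pancreas covariate. It was 2.45% without the pancreas-rich libraries and 2.15% with the epithelium covariate. Over all genes the median interaction was 0.01 on the log2 scale and 48.3% of genes were below 0. The median standard error of an interaction was 0.29, so the 95% interval of a typical gene reached 1.51-fold to either side of its estimate.

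**Figure D1:**
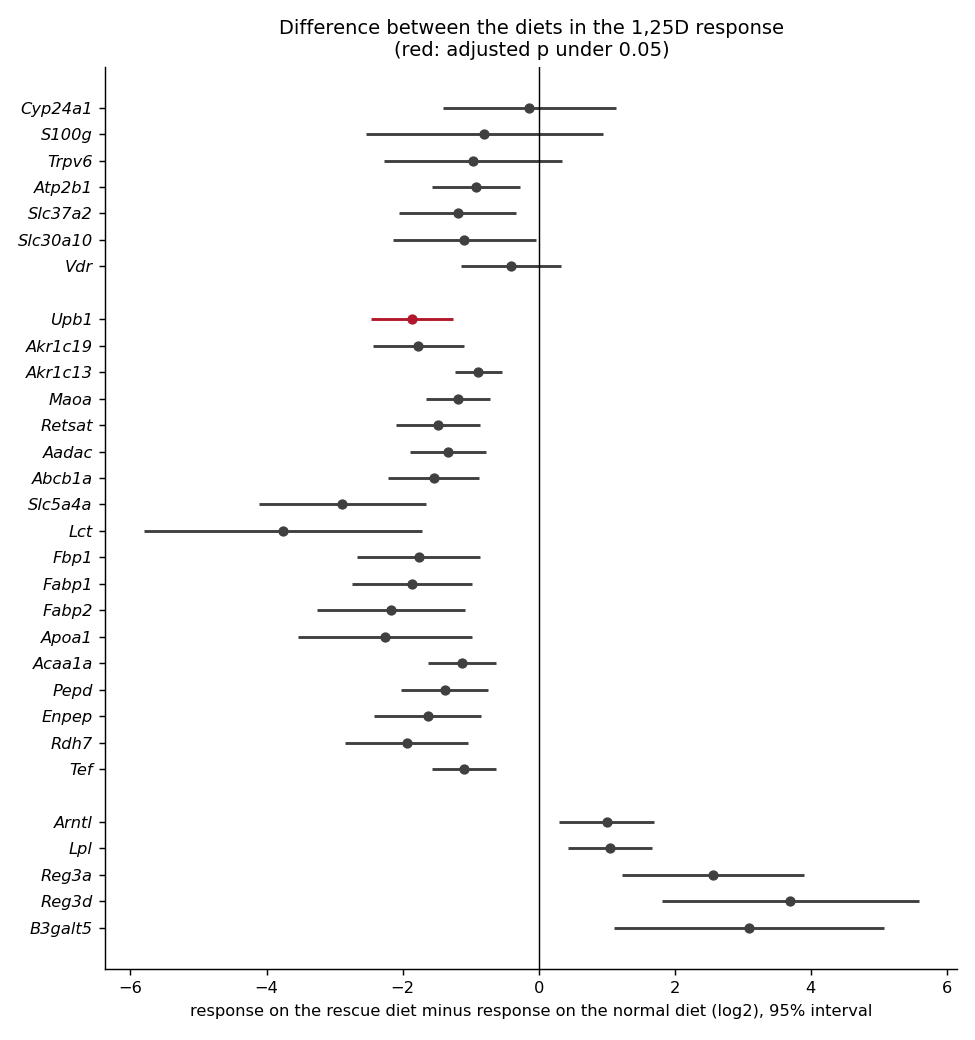
Difference between the diets in the response to 1,25D (log2, rescue minus normal, horizontal axis) for vitamin D targets (top), genes with a lower response on the rescue diet (middle) and genes with a higher one (bottom), each point with its 95% interval. Only Upb1, in red at -1.86, passed the adjusted threshold, and the intervals of Cyp24a1, S100g, Trpv6 and Vdr include 0.

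Upb1 encodes beta-ureidopropionase, which carries out the last step of pyrimidine breakdown. On the normal diet the 6 vehicle libraries held 3.08 to 5.26 RPKM (median 3.73) and the 6 libraries after 1,25D held 7.11 to 13.0 RPKM (median 9.27). On the rescue diet vehicle libraries held 4.29 to 6.63 RPKM (median 5.82) and libraries after 1,25D held 1.47 to 5.44 RPKM (median 3.36). With the hormone, Upb1 was thus higher in every library on the normal diet, whereas on the rescue diet the groups overlapped and all 6 libraries after 1,25D lay below the vehicle median. The response was 2.26-fold on the normal diet (log2 1.18, SE 0.21, adjusted p = 0.00169 by limma), where 1.78% of genes rose and 0.055% fell. On the rescue diet it was 0.623-fold (log2 -0.68, SE 0.21, adjusted p = 0.512). The interaction was -1.86 (SE 0.29, adjusted p = 0.024), a 3.64-fold difference between the responses with a 95% interval of the ratio from 0.181 to 0.418. After 1,25D every rescue library lay below every normal library. That difference passed the limma test (log2 -1.36, SE 0.21, adjusted p = 0.0152), as it did for 0.01% of genes lower on the rescue diet. It is part of the interaction and shares its libraries, so it is not separate support.

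The size of the Upb1 difference was between -1.99 and -1.67 whichever library was left out, but its call held in 11 of these 24 fits (adjusted p from 0.00556 to 0.0717). The call was lost on leaving out normal vehicle replicate 1, 3 or 4, normal 1,25D replicate 4, 5 or 6, rescue vehicle replicate 1, 2, 3 or 4, or rescue 1,25D replicate 1, 2 or 3. Without the 5 libraries rich in pancreas genes it was -1.83 (SE 0.37) with an adjusted p of 0.754, and it did not pass with a pancreas, smooth muscle or general epithelium covariate or after median-of-ratios scaling (adjusted p from 0.0656 to 0.311).

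**Figure D2:**
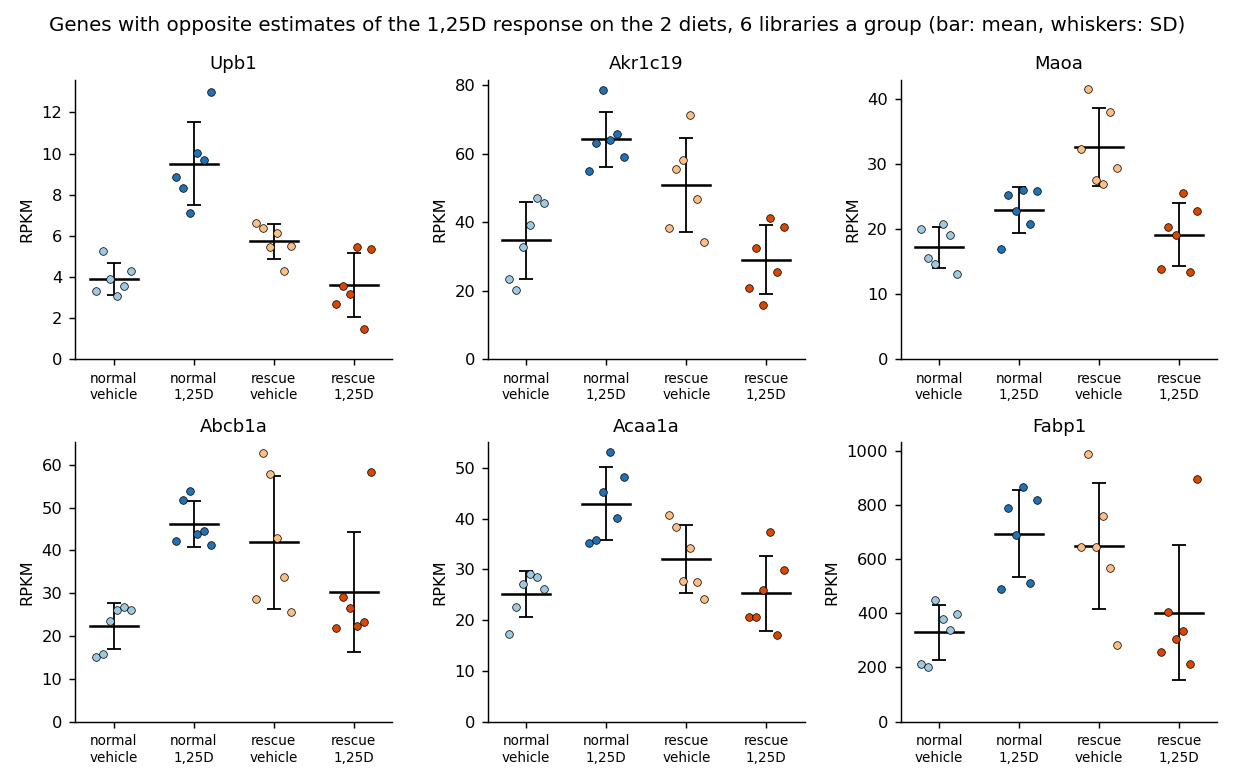
RPKM (vertical axes, from 0) of Upb1, Akr1c19, Maoa, Abcb1a, Acaa1a and Fabp1 in the 4 groups, with 1 point per library, bars at the mean and whiskers of 1 SD (n = 6). In each panel the mean after 1,25D is above that of vehicle on the normal diet and below it on the rescue diet, for Upb1 at 3.90 and 9.5 RPKM against 5.73 and 3.61 RPKM.

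Among the 22 genes of pyrimidine and purine breakdown and salvage that could be tested, 4 had a lower response on the rescue diet at unadjusted p under 0.05 and 0 a higher one, and the median interaction was -0.17. Dpyd, which carries out the first step of pyrimidine breakdown, lay at 18.8 to 48.2 RPKM under vehicle and 50.5 to 84.6 RPKM after 1,25D on the normal diet. The rescue groups of Dpyd lay at 24.6 to 76.4 and 32.2 to 60.9 RPKM, so the groups were apart on the normal diet and overlapped on the rescue diet. Dpyd rose 2.11-fold on the normal diet (adjusted p = 0.0112 by limma), and its interaction was -1.12 (SE 0.33, adjusted p = 0.297). The interaction was -1.79 for Tymp (thymidine phosphorylase; SE 0.56, adjusted p = 0.32) and -0.95 for Xdh (xanthine dehydrogenase of purine breakdown; SE 0.37, adjusted p = 0.537). Without the pancreas-rich libraries 3 of 21 were lower at unadjusted p under 0.05 and the median was 0.01. With the epithelium covariate 3 of 22 were lower (median -0.04). Over all genes 2.45% and 2.15% were lower in these fits, and 5.59% in the fit to all libraries.

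The genes whose levels were most like those of Upb1 over the 24 libraries, among 13487 named genes compared, are given in order. Pearson's r of log2 values was 0.849 for Acaa1a, the thiolase of peroxisomal fatty acid oxidation, and 0.811 for Apoa1, an apolipoprotein of chylomicrons. It was 0.806 for Cyp4a10, a fatty acid hydroxylase, 0.801 for Ephx2, the soluble epoxide hydrolase, and 0.794 for Phyh, which starts the breakdown of phytanic acid. The other 5 of the 10, between 0.783 and 0.788, were Chd3, a chromatin remodeller, Cyp4v3, a fatty acid hydroxylase, Gde1, a phosphodiesterase, Dgat1, which makes triglyceride, and Epha1, an ephrin receptor. These correlations describe points that share libraries, tissue composition and group differences.

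For the vitamin D targets no difference between the diets passed the test. Cyp24a1 lay between 0.131 and 4.03 RPKM (median 0.557) in normal vehicle and between 509 and 1036 RPKM (median 643) in normal 1,25D. In rescue vehicle it lay between 0.016 and 0.712 RPKM (median 0.237) and in rescue 1,25D between 92.1 and 962 RPKM (median 441). Treated and vehicle libraries were far apart on both diets, and the treated libraries of the 2 diets overlapped. The ratio of the Cyp24a1 responses, rescue over normal, was 0.91 with a 95% interval from 0.377 to 2.20 (interaction -0.14, SE 0.62, adjusted p = 0.989 by limma). Its sign depended on the processing: the interaction was 0.47 with a pseudocount of 0.1, which weighs the low vehicle values more.

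S100g held 13.6 to 774 RPKM (median 142) in normal vehicle and 1733 to 2919 RPKM (median 1941) in normal 1,25D, against 119 to 426 RPKM (median 165) in rescue vehicle and 522 to 3084 RPKM (median 1811) in rescue 1,25D. On each diet all treated libraries were above all vehicle libraries. The ratio of responses was 0.575 (95% interval 0.172 to 1.93, adjusted p = 0.961 by limma). On leaving out 1 library the S100g interaction ran from -1.28 to -0.12. Trpv6 held 0.064 to 0.612 RPKM (median 0.266) and 2.42 to 13.4 RPKM (median 6.46) on the normal diet, and 0.074 to 0.529 RPKM (median 0.141) and 0.417 to 14.6 RPKM (median 2.47) on the rescue diet. With the rescue diet its treated range reached into the vehicle range. The ratio of Trpv6 responses was 0.514 (95% interval 0.207 to 1.27, adjusted p = 0.904 by limma). Its interaction ran from -1.42 to -0.61 on leaving out 1 library. For both genes the 95% interval included 1 and also ratios far below it, so these libraries do not show that the responses were alike.

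Atp2b1, the basolateral calcium pump, was measured more precisely. Its normal-diet libraries held 51.5 to 131 RPKM (median 72.0) under vehicle and 248 to 363 RPKM (median 299.6) after 1,25D. Its rescue-diet libraries held 71.0 to 172 RPKM (median 107) and 127 to 289 RPKM (median 257). The groups were apart on the normal diet and overlapped on the rescue diet, where rescue vehicle already stood above normal vehicle in 5 of 6 libraries measured against its median. The ratio of responses was 0.529 (95% interval 0.337 to 0.831), with an interaction of -0.92 (SE 0.32, unadjusted p = 0.00756, adjusted p = 0.417 by limma). On the RPKM scale the rise was 221 RPKM on the normal and 122 RPKM on the rescue diet.

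A similar picture held for the sugar phosphate transporter family member Slc37a2 and the manganese exporter Slc30a10. Slc37a2 held 3.48 to 13.8 and 88.1 to 135 RPKM on the normal diet and 6.17 to 17.3 and 36.9 to 109 RPKM on the rescue diet, with vehicle and treated libraries apart on both. It rose 13.9-fold and 6.10-fold, and the ratio of these responses was 0.438 (95% interval 0.241 to 0.796, adjusted p = 0.43 by limma). Slc30a10 held 5.01 to 30.1 and 88.5 to 135 RPKM on the normal diet and 8.64 to 33.5 and 27.9 to 145 RPKM on the rescue diet, where the groups overlapped. It rose 9.01-fold and 4.23-fold, a ratio of 0.470 (95% interval 0.227 to 0.973, adjusted p = 0.702). Vdr, the receptor, did not pass the test on either diet, and its interaction was -0.41 (SE 0.35, adjusted p = 0.957).

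Of the 14 vitamin D and calcium genes tested, 7 rose on the normal diet, where 1.78% of all genes did, and 6 on the rescue diet, where 0.14% did. The median response was 0.96 and 0.72 on the log2 scale. Of their interactions, 10 were below 0 and the median was -0.36. At unadjusted p under 0.05 there were 3, all lower, where 5.59% of all genes were lower. Without the pancreas-rich libraries 2 of 13 were lower at that level (median -0.21, all genes 2.45%). With the general epithelium covariate 2 of 14 were (median -0.01, all genes 2.15%). Summed over the list, rescue 1,25D replicate 5 held 1157 RPKM, against 2365 to 5159 RPKM in the other libraries of its group.

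**Figure D3:**
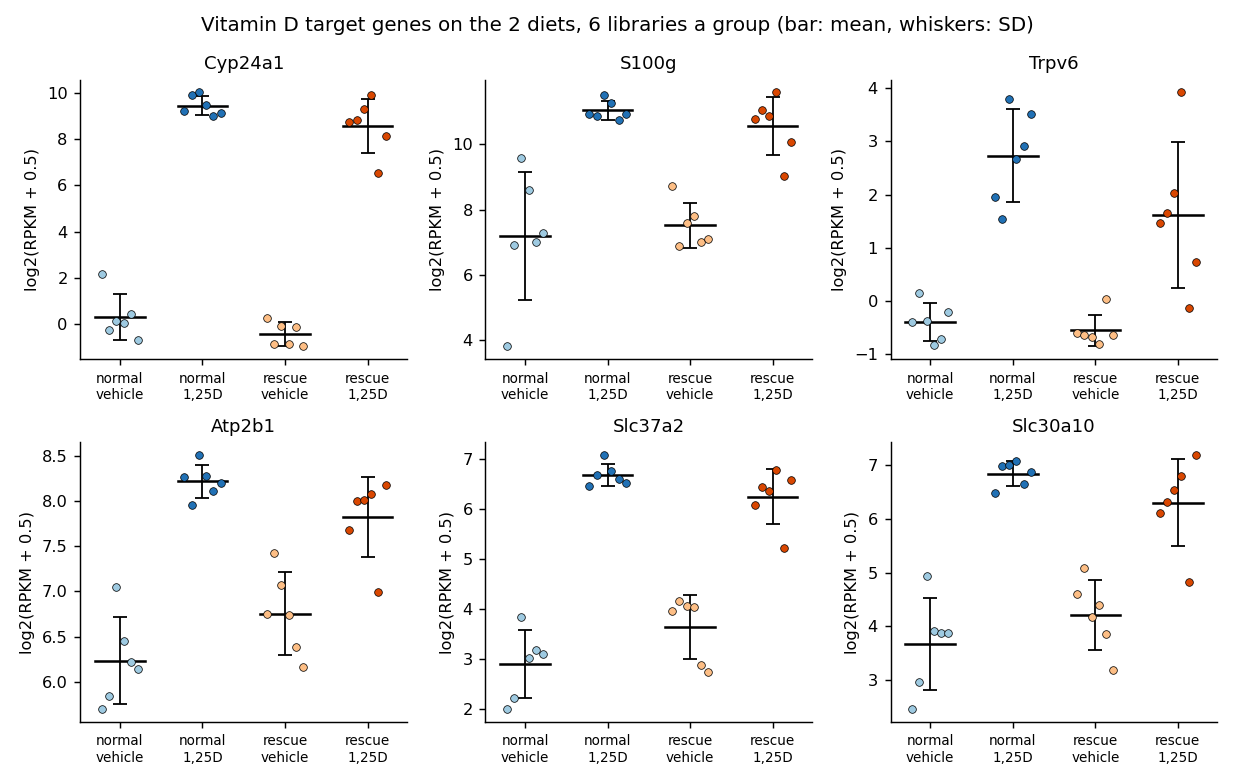
Levels of 6 vitamin D target genes as log2(RPKM + 0.5) (vertical axes, which do not start at 0) in the 4 groups, with 1 point per library, bars at the mean and whiskers of 1 SD (n = 6). Treated libraries stand above every vehicle library of their diet on both diets for Cyp24a1, S100g and Slc37a2. The rescue 1,25D libraries spread more widely than the normal 1,25D libraries, for S100g from 522 to 3084 against 1733 to 2919 RPKM.

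Genes that handle other minerals had smaller responses on the rescue diet as estimates, none past the adjusted threshold. Of 9 phosphate handling genes, 5 had an unadjusted p under 0.05, all lower, and the median interaction was -0.51. The count was 4 without the pancreas-rich libraries and 3 with the epithelium covariate. Over all genes 5.59%, 2.45% and 2.15% were lower in these fits, in the same order. Akp3, an intestinal alkaline phosphatase of the brush border, lay at 31.8 to 313 and 613 to 924 RPKM on the normal diet and at 116 to 535 and 160 to 899 RPKM on the rescue diet. It rose 6.19-fold on the normal diet (adjusted p = 0.00226 by limma) and was 1.78-fold higher on the rescue diet (adjusted p = 0.878), with an interaction of -1.80 (SE 0.67, adjusted p = 0.497). Its neighbour Alpi, the other intestinal alkaline phosphatase, had an interaction of -1.18 (SE 0.45, adjusted p = 0.521). The scaffold proteins Slc9a3r1 and Pdzk1, which hold transporters at the brush border, had interactions of -1.03 (SE 0.32) and -1.17 (SE 0.38), with adjusted p of 0.32 and 0.361. Akp3 and Alpi are similar in sequence and can share reads.

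Of 15 zinc and manganese transport genes, 2 had an unadjusted p under 0.05, both lower, with a median of -0.37, where 5.59% of all genes were lower. With the pancreas-rich libraries left out 0 did (median -0.16), and with the epithelium covariate 0 (median -0.12). The 2 genes lower in the fit to all libraries were Slc30a2 and Slc30a10, and Slc30a10 was also counted among the vitamin D genes above. The zinc exporter Slc30a2 rose from 2.67 to 5.52 RPKM under vehicle to 13.3 to 25.8 RPKM after 1,25D on the normal diet, without overlap. On the rescue diet it lay at 1.92 to 8.71 and 4.59 to 23.9 RPKM, with overlap, and the interaction was -1.07 (SE 0.43, adjusted p = 0.565 by limma). Of 17 iron and copper genes, 6 had an unadjusted p under 0.05, all lower, with a median of -0.45. That count was 1 without the pancreas-rich libraries (all genes 2.45%) and 1 with the epithelium covariate (2.15%), both with a median of -0.28. The 6 included Heph, the copper oxidase that loads iron for export (-1.19, SE 0.40), Slc46a1, the folate and heme carrier (-1.72, SE 0.67), Aco1, the iron-sensing aconitase (-0.49, SE 0.15), and Fth1, the ferritin heavy chain (-0.81, SE 0.33). Their adjusted p-values were 0.401, 0.533, 0.318 and 0.557. Heph rose 2.49-fold on the normal diet (adjusted p = 0.0123) and was 1.09-fold higher on the rescue diet (adjusted p = 0.936).

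Genes for the clearance of foreign compounds showed a lower response on the rescue diet in 33 of 34 estimates. At unadjusted p under 0.05 there were 22, all lower, against a background of 5.59%. There were 16 with the pancreas covariate (background 3.35%), 13 with the epithelium covariate (2.15%) and 10 without the pancreas-rich libraries (2.45%). The median response was 0.85 on the normal diet and -0.05 on the rescue diet, and 11 of the 34 rose on the normal diet, where 1.78% of all genes did. None of the 34 passed the limma test on the rescue diet, where 0.14% of all genes rose, so that count says nothing particular about the list. Over this list the summed RPKM had a median of 1623 in normal vehicle (1112 to 2343) and 3755 in normal 1,25D (2497 to 4358), against 2539 in rescue vehicle (1354 to 2968) and 2133 in rescue 1,25D (991 to 3648). The normal groups did not overlap, and the rescue groups did.

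Abcb1a, which encodes P-glycoprotein, an efflux pump for drugs and toxins, lay at 15.0 to 26.7 RPKM (median 24.8) in normal vehicle and 41.2 to 53.8 RPKM (median 44.2) in normal 1,25D. On the rescue diet it lay at 25.6 to 62.9 RPKM (median 38.3) and 21.9 to 58.4 RPKM (median 25.0). All rescue vehicle libraries stood above the normal vehicle median, and 5 of 6 rescue 1,25D libraries stood below the rescue vehicle median. Abcb1a rose 2.10-fold on the normal diet (adjusted p = 0.0113 by limma) and was 0.719-fold on the rescue diet (adjusted p = 0.878). Its interaction was -1.54 (SE 0.32, adjusted p = 0.133). The related pump Abcb1b had an interaction of -0.72 (SE 0.19, adjusted p = 0.231) at lower levels, 2.43 to 5.42 RPKM over all groups. Ugt2b34, a glucuronosyltransferase, lay at 316 to 536 and 535 to 875 RPKM on the normal diet and at 536 to 714 and 344 to 681 RPKM on the rescue diet. Its interaction was -1.08 (SE 0.26, adjusted p = 0.187). Cyp2j6, a cytochrome P450 of the small intestine, had an interaction of -0.92 (SE 0.25, adjusted p = 0.261).

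In carbohydrate digestion and use, 22 of 25 interactions were below 0, 13 had an unadjusted p under 0.05, all lower, and the median was -0.95. The count was 8 without the pancreas-rich libraries and 8 with the epithelium covariate. The shares of all genes lower in these fits were 5.59%, 2.45% and 2.15%, in the same order. Slc5a4a, a member of the sodium and glucose cotransporter family, was the member with the smallest p. It lay at 0.059 to 1.04 RPKM (median 0.891) in normal vehicle and 5.14 to 14.3 RPKM (median 9.29) in normal 1,25D, against 0.366 to 7.36 RPKM (median 2.56) in rescue vehicle and 0.856 to 4.97 RPKM (median 2.40) in rescue 1,25D. The normal groups were far apart, and every rescue 1,25D library lay below every normal 1,25D library. Slc5a4a rose 7.78-fold on the normal diet (adjusted p = 0.000217 by limma) and was 1.05-fold on the rescue diet (adjusted p = 0.976), with an interaction of -2.88 (SE 0.60, adjusted p = 0.133).

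Lct encodes lactase, the brush border enzyme that splits lactose, the sugar added to the rescue diet. It lay at 1.73 to 58.8 RPKM (median 14.0) in normal vehicle and 68.9 to 238 RPKM (median 166) in normal 1,25D. In rescue vehicle it lay at 12.5 to 197 RPKM (median 47.8) and in rescue 1,25D at 7.40 to 122 RPKM (median 34.7). After 1,25D, Lct was above every vehicle library on the normal diet, and on the rescue diet the groups overlapped widely. It rose 9.53-fold on the normal diet (adjusted p = 0.012) and was 0.705-fold on the rescue diet (adjusted p = 0.903 by limma), and the interaction of -3.76 (SE 0.99) had an adjusted p of 0.261. Fbp1, a bisphosphatase of gluconeogenesis, rose 3.18-fold on the normal diet (adjusted p = 0.00304), was 0.936-fold on the rescue diet (adjusted p = 0.957) and had an interaction of -1.76 (SE 0.44, adjusted p = 0.204). Khk, which phosphorylates fructose, had an interaction of -0.95 (SE 0.27, adjusted p = 0.268).

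**Figure D4:**
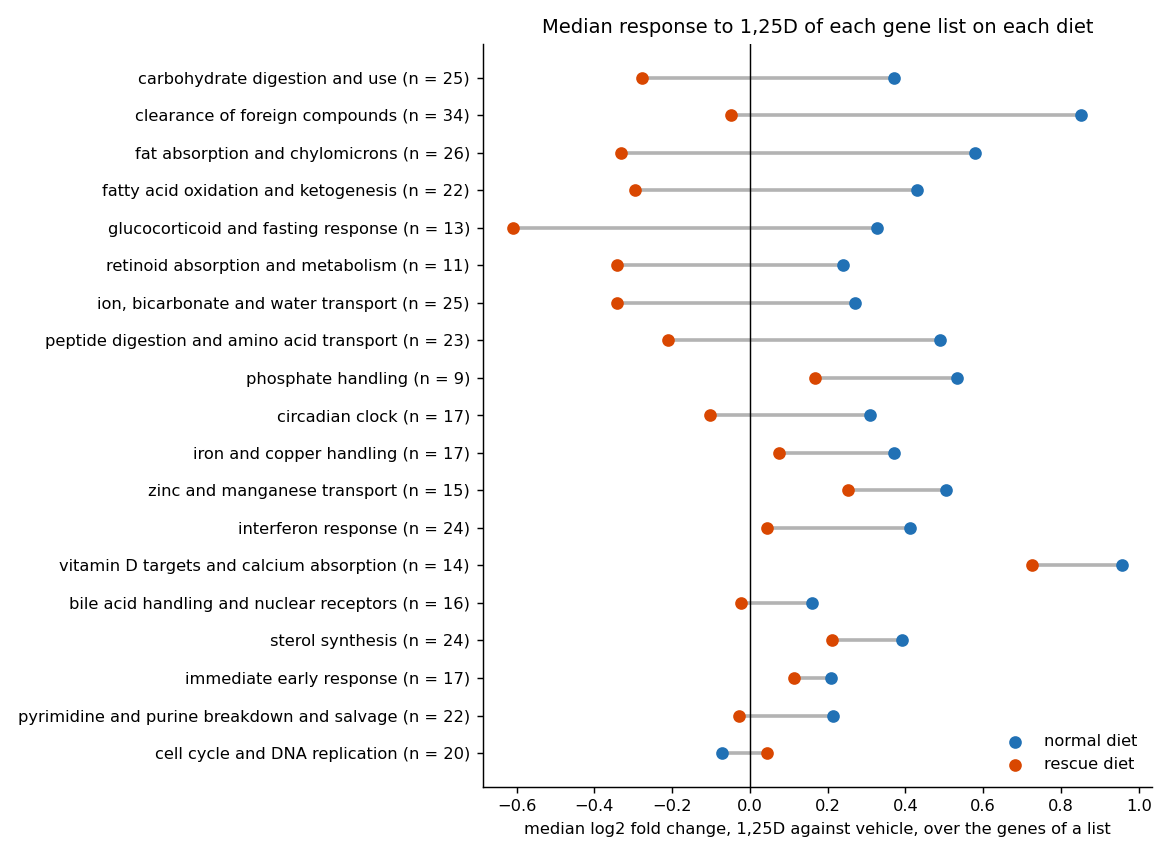
Median response to 1,25D (log2 fold change against vehicle, horizontal axis) of the genes of each of 19 function lists on the normal diet (blue) and the rescue diet (orange), with the number of genes tested. The rescue median lies to the left of the normal median for 18 of the lists, and the cell cycle list, at -0.07 and 0.04, is the exception.

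Of 26 fat absorption genes 20 had an unadjusted p under 0.05, all with a lower response on the rescue diet, where 5.59% of all genes were lower. In all, 24 interactions were below 0 (median -0.81). The count was 12 with the pancreas covariate (all genes 3.35%), 10 without the pancreas-rich libraries (2.45%) and 10 with the epithelium covariate (2.15%). Fabp1, the liver-type fatty acid binding protein, lay at 201 to 450 RPKM (median 358) in normal vehicle and 489 to 864 RPKM (median 737) in normal 1,25D, against 281 to 988 RPKM (median 644) in rescue vehicle and 214 to 894 RPKM (median 321) in rescue 1,25D. Treated libraries were above all vehicle libraries on the normal diet, and on the rescue diet 5 of 6 were below the vehicle median. The Fabp1 interaction was -1.86 (SE 0.43, adjusted p = 0.179 by limma). Fabp2, the intestinal fatty acid binding protein, rose 3.24-fold on the normal diet (adjusted p = 0.0142), and its interaction was -2.17 (SE 0.53, adjusted p = 0.187). It was the 1 gene of the 26 that passed the test on the normal diet, where 1.78% of all genes rose. On the rescue diet 0 of the 26 passed. The chylomicron apolipoproteins Apoa1 and Apoa4 had interactions of -2.26 (SE 0.62) and -2.47 (SE 0.77), with adjusted p of 0.261 and 0.32. Apoa4 is among the most abundant of them, with a median of 853 RPKM in normal vehicle and 2275 in normal 1,25D, against 1904 in rescue vehicle and 1127 in rescue 1,25D.

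In fatty acid oxidation and ketogenesis all 22 interactions were below 0, from -1.88 to -0.17 (median -0.73), and 13 had an unadjusted p under 0.05 (all genes lower 5.59%). The count was 8 both without the pancreas-rich libraries (2.45%) and with the epithelium covariate (2.15%). For 19 of the 22 the estimate was above 0 on the normal diet and below 0 on the rescue diet. Acaa1a lay at 17.4 to 29.2 RPKM (median 26.7) and 35.1 to 53.2 RPKM (median 42.6) on the normal diet and at 24.1 to 40.7 RPKM (median 31.0) and 17.0 to 37.3 RPKM (median 23.4) on the rescue diet. It rose 1.70-fold on the normal diet (adjusted p = 0.0176 by limma), without overlap, and was 0.779-fold on the rescue diet (adjusted p = 0.878). The Acaa1a interaction was -1.12 (SE 0.24, adjusted p = 0.141). Its near copy Acaa1b, with which it can share reads, had an interaction of -1.48 (SE 0.36, adjusted p = 0.187). Acadm, the mitochondrial dehydrogenase of medium-chain fatty acids, spanned a smaller range, with group means of 51.0, 65.3, 62.3 and 50 RPKM in normal vehicle, normal 1,25D, rescue vehicle and rescue 1,25D. Its interaction was -0.69 (SE 0.17, adjusted p = 0.187), and every rescue 1,25D library lay below every normal 1,25D library.

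Of 23 genes for peptide digestion and amino acid transport, 13 had an unadjusted p under 0.05, all lower, with a median of -0.59. There were 9 with the pancreas covariate (all genes 3.35%), 7 without the pancreas-rich libraries (2.45%) and 6 with the epithelium covariate (2.15%), against 5.59% in the fit to all libraries. Pepd, which splits dipeptides ending in proline, rose 2.03-fold on the normal diet (adjusted p = 0.0114 by limma) from 18.2 to 29.3 RPKM to 40.1 to 55.0 RPKM. The rescue groups of Pepd lay at 22.5 to 72.0 and 18.8 to 51.9 RPKM, and its interaction was -1.38 (SE 0.31, adjusted p = 0.151). For the brush border aminopeptidase Enpep and the imino acid transporter Slc6a20a, more of the difference came from the rescue diet: their responses there were 0.490-fold and 0.403-fold (adjusted p = 0.246 and 0.121), against 1.52-fold and 1.4-fold on the normal diet (adjusted p = 0.345 and 0.632). Their interactions were -1.63 (SE 0.38) and -1.80 (SE 0.44), each with an adjusted p of 0.187.

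Of 11 retinoid genes 5 had an unadjusted p under 0.05, all lower (median -0.61), where 5.59% of all genes were lower. The count was 4 of 10 without the pancreas-rich libraries (all genes 2.45%) and 5 of 11 with the epithelium covariate (2.15%). Rdh7, a retinol dehydrogenase, lay at a median of 37.7 RPKM in normal vehicle and 78.6 in normal 1,25D, against 79.7 in rescue vehicle and 35.8 in rescue 1,25D. The rescue diet and the hormone were thus each associated with a higher median when alone, and the median with both was close to that with neither. The Rdh7 interaction was -1.94 (SE 0.44, adjusted p = 0.157 by limma), and that of Rbp2, the intestinal retinol binding protein, -1.43 (SE 0.46, adjusted p = 0.341). Of 25 ion, bicarbonate and water transport genes 10 had an unadjusted p under 0.05, all lower (median -0.61). There were 6 with the pancreas covariate, 4 without the pancreas-rich libraries (median -0.29) and 5 with the epithelium covariate (median -0.26). Over all genes 3.35%, 2.45% and 2.15% were lower in these fits. The salt and water regulating peptide gene Guca2b (uroguanylin) had medians of 24.5, 53.9, 51.3 and 10.6 RPKM in the same order of groups and an interaction of -2.67 (SE 0.69, adjusted p = 0.238). Aqp3, a channel for water and glycerol, lay at 0.163 to 0.839 RPKM in rescue 1,25D, below every normal 1,25D library (0.882 to 2.41 RPKM), and its interaction was -1.71 (SE 0.51, adjusted p = 0.318).

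Outside these lists, the genes with the smallest p-values after Upb1 also had lower responses on the rescue diet. Akr1c19 lay at 20.3 to 47.0 RPKM (median 35.9) in normal vehicle and 54.9 to 78.5 RPKM (median 63.6) in normal 1,25D, against 34.3 to 71.4 RPKM (median 51.2) in rescue vehicle and 15.7 to 41.3 RPKM (median 29.1) in rescue 1,25D. It rose 1.92-fold on the normal diet (adjusted p = 0.0286 by limma), was 0.563-fold on the rescue diet (adjusted p = 0.324) and had an interaction of -1.77 (SE 0.32, adjusted p = 0.0937). Every rescue 1,25D library lay below every normal 1,25D library. Akr1c13, from the same family of near copies that can share reads, had an interaction of -0.89 (SE 0.16, adjusted p = 0.0937), with every rescue vehicle library (63.4 to 84.7 RPKM) above every normal vehicle library (38.1 to 56.3 RPKM).

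Maoa, the mitochondrial enzyme that oxidises serotonin and other amines, was the 1 gene that fell with 1,25D on the rescue diet (0.005% of genes). It lay at 13.1 to 20.8 RPKM (median 17.3) and 17.0 to 26.1 RPKM (median 24) on the normal diet and at 26.9 to 41.6 RPKM (median 30.9) and 13.3 to 25.6 RPKM (median 19.7) on the rescue diet. The rescue groups did not overlap, and rescue vehicle stood above normal vehicle in every library. Maoa fell to 0.585-fold on the rescue diet (log2 -0.77, SE 0.16, adjusted p = 0.0484), was 1.33-fold on the normal diet (adjusted p = 0.247) and had an interaction of -1.19 (SE 0.23, adjusted p = 0.0937).

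Retsat, which reduces retinol, and Aadac, an esterase of the endoplasmic reticulum, had interactions of -1.48 (SE 0.30) and -1.34 (SE 0.27), both with an adjusted p of 0.126 by limma. Both rose on the normal diet, 2.12-fold for Retsat and 1.75-fold for Aadac (adjusted p = 0.00509 and 0.0234), and were 0.758-fold and 0.694-fold on the rescue diet (adjusted p = 0.878 and 0.843). The reductase Dhrs4, the bisphosphatase Fbp2 and the orphan receptor Gpr151 had interactions of -0.80 (SE 0.17), -0.89 (SE 0.19) and -1.90 (SE 0.41), with adjusted p between 0.133 and 0.135. In bulk tissue such as this, fewer cells of a type and less RNA per cell cannot be told apart.

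Of 17 circadian clock genes, 7 had a lower and 1 a higher response on the rescue diet at unadjusted p under 0.05, and the median was -0.46. Leaving out the pancreas-rich libraries gave 2 lower (all genes 2.45%), and the epithelium covariate gave 6 (2.15%), against 5.59% in the fit to all libraries. Tef, a transcription factor of clock output, lay at 11 to 19.7 RPKM (median 13.1) and 20.1 to 25.5 RPKM (median 21.2) on the normal diet, without overlap, and at 16.5 to 21.4 RPKM (median 19.6) and 9.38 to 22.7 RPKM (median 13.8) on the rescue diet. It rose 1.6-fold on the normal diet (adjusted p = 0.0266 by limma), and its interaction was -1.10 (SE 0.23, adjusted p = 0.133). Its relative Hlf and the clock repressor Per3 had interactions of -1.04 (SE 0.37) and -0.85 (SE 0.28), with adjusted p of 0.45 and 0.394. Arntl (Bmal1), the activator whose rhythm runs opposite to these genes, had an interaction of 1.00 (SE 0.34, adjusted p = 0.397). It lay at 1.37 to 4.48 and 1.42 to 2.14 RPKM on the normal diet and at 1.97 to 4.79 and 2.57 to 6.76 RPKM on the rescue diet, so rescue 1,25D libraries stood above all normal 1,25D libraries. The labels give no clock time of collection.

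At unadjusted p under 0.05, genes with a higher response on the rescue diet were fewer in the fit to all libraries, and none passed the adjusted threshold there. In other fits Srp9 passed after quantile normalization (adjusted p = 0.0407 by limma) and Arntl with array weights (adjusted p = 0.0433). Among those named, Reg3d and Reg3a, secreted lectins of the regenerating family, had the smallest p-values. Reg3d lay at 3.98 to 21.6 RPKM (median 19.9) in normal vehicle and 0.367 to 11.2 RPKM (median 2.17) in normal 1,25D, against 0 to 6.26 RPKM (median 2.69) in rescue vehicle and 1.61 to 19.4 RPKM (median 5.85) in rescue 1,25D. Normal vehicle had the highest median, and the treated and vehicle groups overlapped on both diets. The interaction was 3.70 for Reg3d (SE 0.92, adjusted p = 0.202 by limma) and 2.56 for Reg3a (SE 0.65, adjusted p = 0.216). The Reg genes are near copies that can share reads. Exocrine pancreas also makes proteins of this family, and its markers were highest in the same group, normal vehicle. Without the pancreas-rich libraries the interactions were 3.34 for Reg3d and 2.31 for Reg3a.

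Lpl, the lipase that releases fatty acids from lipoproteins, was below every vehicle library after 1,25D on the normal diet, at 0.738 to 1.02 against 1.07 to 2.86 RPKM. The rescue groups of Lpl lay at 0.682 to 2.24 and 1.11 to 2.36 RPKM, and the interaction was 1.05 (SE 0.30, adjusted p = 0.273 by limma). Srp9, a subunit of the signal recognition particle, had a small and precise estimate of 0.43 (SE 0.13, adjusted p = 0.313), with rescue 1,25D at 43.1 to 51.6 RPKM above all vehicle libraries of its diet (35.7 to 42.1 RPKM). The galactosyltransferase gene B3galt5 had an interaction of 3.09 (SE 0.96, adjusted p = 0.32), and 1 rescue 1,25D library, replicate 3, stood at 133 RPKM against a group median of 17.0 RPKM.

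Cell type markers also differed between the groups, and their part in the results was not tested beyond the fits given here. The exocrine pancreas list, with 28 of 28 genes tested, had a median interaction of 3.01, from a response of -3.30 on the normal diet and -0.25 on the rescue diet. Of its genes 4 had an unadjusted p under 0.05, all higher, where 1.26% of all genes were higher. Its summed RPKM was 4499 to 99151 in normal vehicle (median 17616) and 2208 to 22329 in normal 1,25D, against 890.4 to 15772 in rescue vehicle and 1269 to 34668 in rescue 1,25D. The group with the most pancreas signal was therefore normal vehicle. Prss1, a trypsinogen, had an interaction of 3.58 (SE 1.57, adjusted p = 0.642 by limma). The 16 smooth muscle genes all had interactions above 0, from 0.19 to 0.82 with a median of 0.50. An unadjusted p under 0.05 was reached by 0 of 16, and by 6.85% of all genes. The summed RPKM of the smooth muscle list had medians of 556, 451, 710 and 745 in normal vehicle, normal 1,25D, rescue vehicle and rescue 1,25D.

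General epithelium markers leaned the other way: 13 of 15 were below 0, with a median of -0.13 (0.02 after quantile normalization). Of the 15, 4 had an unadjusted p under 0.05, all lower, where 5.59% of all genes were lower. Without the pancreas-rich libraries 0 of 15 were lower at that level. Over all genes 2.45% were lower in that fit, so the 0 says nothing particular about the list. Vil1, which bundles actin in the brush border, had an interaction of -0.81 (SE 0.30, adjusted p = 0.481 by limma) and Krt20, a keratin of mature epithelium, -1.24 (SE 0.59, adjusted p = 0.713). With the general epithelium list as a covariate the list medians were -0.78 for clearance of foreign compounds, -0.70 for carbohydrate use, -0.62 for fat absorption and -0.55 for fatty acid oxidation. Without the pancreas-rich libraries they were -0.81, -0.89, -0.67 and -0.48.

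**Figure D5:**
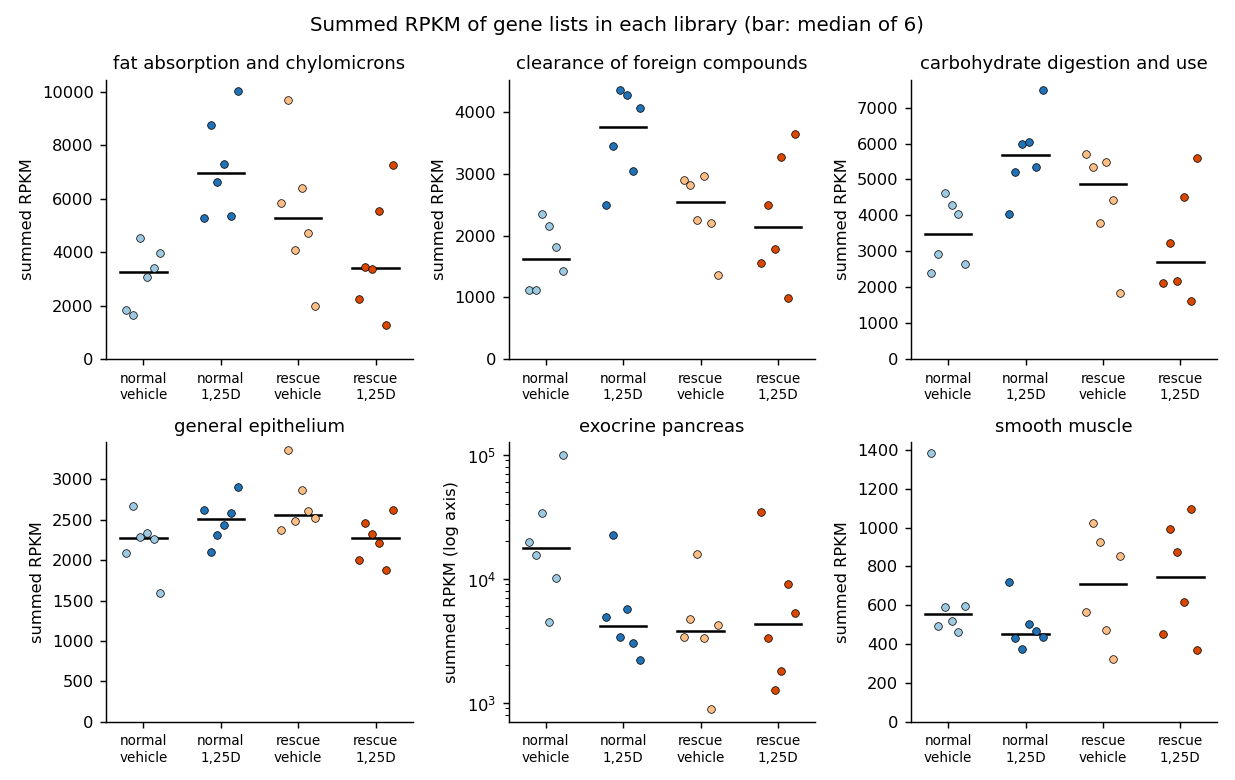
Summed RPKM of 3 function lists (top) and 3 marker lists (bottom) in each library, with bars at the median of 6; the exocrine pancreas panel has a logarithmic vertical axis and the others start at 0. For clearance of foreign compounds the normal-diet medians are 1623 (vehicle) and 3755 RPKM (1,25D) and the rescue-diet medians 2539 and 2133 RPKM, and the pancreas panel shows 1 normal vehicle library near 99151 RPKM.

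Markers of other cell types were also described. Over all genes 5.59% were lower at unadjusted p under 0.05, 2.45% without the pancreas-rich libraries and 2.15% with the epithelium covariate. Of 14 enteroendocrine genes 6 had an unadjusted p under 0.05, all lower (median -0.34). The count was 2 without the pancreas-rich libraries (median -0.34) and 3 with the epithelium covariate (median -0.16). The 6 included the hormones Gip (-1.02, SE 0.33) and Cck (-0.91, SE 0.29), both with an adjusted p of 0.361 by limma. Of 11 T cell genes 4 were lower at unadjusted p under 0.05 (median -0.44), with the granzyme Gzma at -2.10 (SE 0.62, adjusted p = 0.312 by limma). The count was 4 of 9 without the pancreas-rich libraries (median -0.54) and 2 of 11 with the epithelium covariate (median -0.25). The goblet cell list had a median of -0.27, with 2 lower and 1 higher. Without the pancreas-rich libraries 1 was lower (median -0.01), and with the epithelium covariate 1 was lower (median 0.06). The gene higher in the fit to all libraries, Retnlb, a secreted antimicrobial protein, had an interaction of 1.90 (SE 0.67, adjusted p = 0.432 by limma). The 14 Paneth cell, 12 crypt stem cell, 11 MHC class II and B cell and 20 stromal, endothelial, nerve and blood genes had medians of 0.16, 0.10, -0.01 and 0.28, and 0 of them had an unadjusted p under 0.05. The stem cell marker Lgr5 was lower after 1,25D in every library on the normal diet, 0.768 to 1.16 against 1.33 to 3.13 RPKM. Its interaction was 0.34 (SE 0.31, adjusted p = 0.957). The 6 Brunner's gland and stomach genes tested had a median of -1.06 and 1 was lower at unadjusted p under 0.05. The count was 0 of 5 without the pancreas-rich libraries and 0 of 6 with the epithelium covariate.

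In the remaining function lists the counts at unadjusted p under 0.05 lay nearer the background. Over all genes 5.59% were lower, 2.45% without the pancreas-rich libraries and 2.15% with the epithelium covariate. Of 24 sterol synthesis genes 21 interactions were below 0 but 1 had an unadjusted p under 0.05 (median -0.27). The count was 2 without the pancreas-rich libraries and 0 with the epithelium covariate. The counts were 2 of 16 for bile acid handling and nuclear receptors (median -0.30), 2 of 24 for interferon response (-0.36) and 2 of 17 for immediate early genes (-0.22), all lower. Without the pancreas-rich libraries these counts were 1, 2 and 0 (medians -0.14, -0.26 and -0.04), and with the epithelium covariate 1, 0 and 0 (medians -0.07, -0.13 and 0.02). All 13 genes of the glucocorticoid and fasting response were below 0 (median -0.72), against 48.3% of all genes (median 0.01). The mean log2 value of this list varied most within groups among the function lists (SD 0.79). Of the 13, 0 reached an unadjusted p under 0.05, and the median was -0.16 with a general epithelium covariate. Cell cycle and DNA replication genes had a median of 0.10, 8 of 20 below 0 and 0 at that level.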

How the data were processed

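RNA of 24 mouse duodenum libraries was measured by RNA sequencing. Per the labels' protocols, DNase treatment and RiboMinus depletion of ribosomal RNA preceded ScriptSeq library preparation. Per the submitters' processing notes, reads were aligned with TopHat to mm9. For the quantifier, the annotation and versions: not given in the sources used here. All values are RPKM as the authors deposited them, 1 table of 30795 entries per library. Absolute depth is unknown, so no counting interval is given.

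RPKM of entries sharing a symbol were summed to 25410 symbols (3470 had several entries, and 25 are dates from spreadsheet conversion). The 20006 genes with at least 0.5 RPKM in at least 6 libraries were tested as log2(RPKM + 0.5), so fold changes are on that scale and understate changes of low genes. limma 3.58.1 (R 4.3.3) fitted 4 group means with 20 residual degrees of freedom, a trended variance prior and Benjamini-Hochberg adjustment over all genes of each comparison. The interaction and its 95% interval come from this fit. The procedure was also run on simulated data with noise drawn independently for each gene. That simulation does not cover variation that genes share, such as tissue content. Tables and figures used Python 3.11.15, pandas 2.3.3, numpy 2.4.6 and matplotlib 3.10.9.

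Named genes are the 12 with the smallest interaction p in each direction (mean of at least 1 RPKM in the highest group, named genes only), up to 4 per list by the same p, 9 set genes (Upb1, Cyp24a1, S100g, Trpv6, Atp2b1, Vdr, Slc37a2, Slc30a10, Cyp27b1) and the 10 most like Upb1. The text uses 77 of the 150 so chosen. The comparison, the members and the gene lists were chosen with earlier results of these data known, so lists are described by counts and medians without a test. Alternatives changed the pseudocount, filter, scaling, weights, prior, covariates and libraries used.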

Additional observations from a re-analysis of the deposited data

Results flagged for a closer look

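The response of Upb1 to 1,25D differed between the diets by the test of the interaction (-1.86 on the log2 scale, SE 0.29, adjusted p = 0.024 by limma).

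Among 308 sets of 6 libraries, 1 for each named gene and group, 22 held a library whose log2 value stood far from the other 5 (Dixon's test at the 95% level). Chance gives about 1 in 20. Replicate 1 of normal 1,25D and replicate 6 of rescue vehicle each held 4 of them, and replicate 6 of rescue 1,25D held 3.

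In normal 1,25D replicate 1, 3 genes were low: Cyp4v3 at 64.2 RPKM (others 120 to 153), Pepd at 40.1 RPKM (others 49.5 to 55.0) and Rdh7 at 33.7 RPKM (others 68.2 to 92.4). Cck was high there, at 29.8 RPKM (others 21.6 to 23.8). In the same group Dhrs4 and Chd3 were low in replicate 5 at 39.3 and 21.2 RPKM, Hlf high in replicate 2 at 7.77 RPKM and Khk high in replicate 6 at 138 RPKM.

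In rescue vehicle replicate 6 the absorptive genes Aadac at 34.5 RPKM (others 48.3 to 57.4), Fabp2 at 258 RPKM (others 622 to 1002) and Slc30a2 at 1.92 RPKM (others 5.08 to 8.71) were low, and the stem cell marker Lgr5 was high at 3.15 RPKM (others 1.5 to 1.88). In that group B3galt5 was high in replicate 2 at 9.21 RPKM and Trpv6 in replicate 5 at 0.529 RPKM.

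In rescue 1,25D replicate 6, Abcb1a at 58.4 RPKM (others 21.9 to 29.2), Acadm at 57.6 RPKM (others 46.8 to 50.4) and Fth1 at 1594 RPKM (others 901 to 1025) were high. In replicate 5 of that group the alkaline phosphatases Akp3 at 160 RPKM (others 502 to 899) and Alpi at 149 RPKM (others 336 to 545) were low, and in replicate 3 B3galt5 was high at 133 RPKM (others 6.47 to 19.7). In normal vehicle, Actg2, a smooth muscle actin, was high in replicate 1 at 82.9 RPKM (others 15.0 to 25.4) and Per3 in replicate 5 at 5.44 RPKM.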

How the results depend on the processing

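The number of genes called at an adjusted p under 0.05 (limma), 1 here, was 2 after quantile normalization, 32 with array weights (31 lower on the rescue diet; 1171 lower and 879 higher at unadjusted p under 0.05), 11 on dropping rescue 1,25D replicate 4 together with normal vehicle replicate 6, and 5 at an adjusted p under 0.1. It was 0 after median-of-ratios scaling (1459 at unadjusted p under 0.05), with an exocrine pancreas covariate (1023, of which 671 lower and 352 higher), a smooth muscle covariate (1205) or a general epithelium covariate (1168), and without the libraries holding over 3% pancreas RPKM (1200), a setting chosen after seeing the data. Leaving out 1 library at a time gave 0 to 17 calls: 0 in 13 fits, 1 in 6 and more in 5, namely 17 without rescue 1,25D replicate 4, 16 without rescue vehicle replicate 6, 11 without rescue 1,25D replicate 6, 5 without normal 1,25D replicate 1 and 7 without normal vehicle replicate 5. The count at unadjusted p under 0.05 ran from 1077 to 1759 in these fits, and without normal vehicle replicate 6 it was 859 lower and 622 higher. The lean to lower responses was also much smaller without rescue 1,25D replicate 5 and, less so, without rescue vehicle replicate 1. Neither of these libraries was among those rich in pancreas genes, so the lean did not depend on the pancreas-rich libraries alone. The cause of these changes was not tested.

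Of 76 genes named, 75 kept the sign of their interaction under every alternative run. The exception was Cyp24a1, at 0.47 with a pseudocount of 0.1, 0.24 with array weights, 0.13 with a pancreas covariate, 0.078 with a general epithelium covariate and -0.51 to 0.27 on leaving out 1 library. Of 3118 fits of single genes, 3026 kept direction and side of the threshold, 67 passed it and 18 no longer did. With the replicate number as a block 1 gene was called, Upb1 (adjusted p = 0.02), and 1368 had an unadjusted p under 0.05. Same-numbered libraries showed no shared deviation over all genes (36 pairs, r from -0.44 to 0.48, median 0.00). Pairs with other numbers spread more widely (180 pairs, r from -0.76 to 0.72, median 0.02). This comparison cannot decide whether the numbers pair the samples.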
